A study of Mus musculus with 4 samples.

Results

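Skeletal muscle meets the oxidants that its mitochondria and its contractions produce with families of enzymes that are described here in mice lacking the mitophagy receptor Fundc1 in muscle. The set holds 59 genes of 14134 tested rows in the deposited gene table, taken by symbol: superoxide dismutases (Sod), catalase (Cat), glutathione peroxidases (Gpx), peroxiredoxins (Prdx) with sulfiredoxin (Srxn1), thioredoxins and thioredoxin-domain genes (Txn), glutaredoxins (Glrx), the enzymes that make and recycle glutathione (Gclc, Gclm, Gss, Gsr), glutathione S-transferases (Gst), quinone oxidoreductases (Nqo) and the NFE2L transcription factors. Of 73 rows that carried such a symbol, 59 were tested by the authors and form the set, and the other 14 were not tested.

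RNA came from the gastrocnemius, the large calf muscle, of C57BL/6J mice aged 8 weeks. Fundc1-mKO mice carried a muscle-specific knockout of Fundc1 (mKO below), and the controls were wild-type mice (WT), with 2 libraries in each group. The labels call these libraries biological replicates; the promoter behind the deletion, and any pooling of animals, were not given in the sources used here. The table holds 1 FPKM value per gene and group, a fragment count corrected for transcript length and sequencing depth, with the authors' interval around it. The spread between animals and the depth of each library are therefore unknown here, and the error given below is the one the authors' software assigned.

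Superoxide dismutases turn superoxide into hydrogen peroxide, and catalase, glutathione peroxidases and peroxiredoxins turn hydrogen peroxide into water. Most glutathione peroxidases draw their electrons from glutathione, which glutathione reductase restores with NADPH. Most peroxiredoxins draw theirs from thioredoxin, which thioredoxin reductase restores with NADPH. Glutathione S-transferases couple glutathione to reactive compounds, and many genes of these families are known targets of the transcription factor NRF2, the product of Nfe2l2.

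Fundc1 itself was at 4.23 FPKM in mKO, with an interval of 3.15 to 5.31, and at 20.1 FPKM in WT, with an interval of 16.3 to 23.8. Its log2 ratio was -2.25 ± 0.23 (SE), and the authors' deposited table gave q = 0.00338. The intervals lay apart, so the targeted transcript went with the labels. Of the skeletal muscle markers Pygm, Casq1, Mb, Myh2, Myh7 and Cacna1s, each was above 100 FPKM in both groups. The other 5 on the list had no tested row that carried their symbol alone. Myh2, the myosin of type IIa fibres, was below WT at 384 FPKM in mKO and 487 in WT and passed the authors' test; the other 5 tested markers did not pass.

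No gene of the set passed the test between mKO and WT muscle. In the authors' deposited table none of the 59 had an adjusted p (q) under 0.05, beside 3.17% of all tested rows, 0.92% higher and 2.25% lower in mKO, and beside 2.95% of the rows at or above the set's lowest mean FPKM. In no gene did the intervals of the groups lie apart, beside 0.715% of all tested rows. All 59 differed by less than 20% of the WT value, as did 92.8% of the 10744 such rows with a value in both groups. Most differences were smaller still: 45 genes stood within 10%, which is 76.3% of the set beside 74.7% of those rows. In direction the set was split, with 27 genes above and 32 below WT. That is 45.8% of the set higher in mKO, beside 43.8% of the same 10744 rows. The median of the log2 ratio of FPKM + 1 was -0.01 over the set and -0.02 over all tested rows. The summed level of the 59 genes was 4696 FPKM in mKO and 4558 FPKM in WT.

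**Figure D1:**
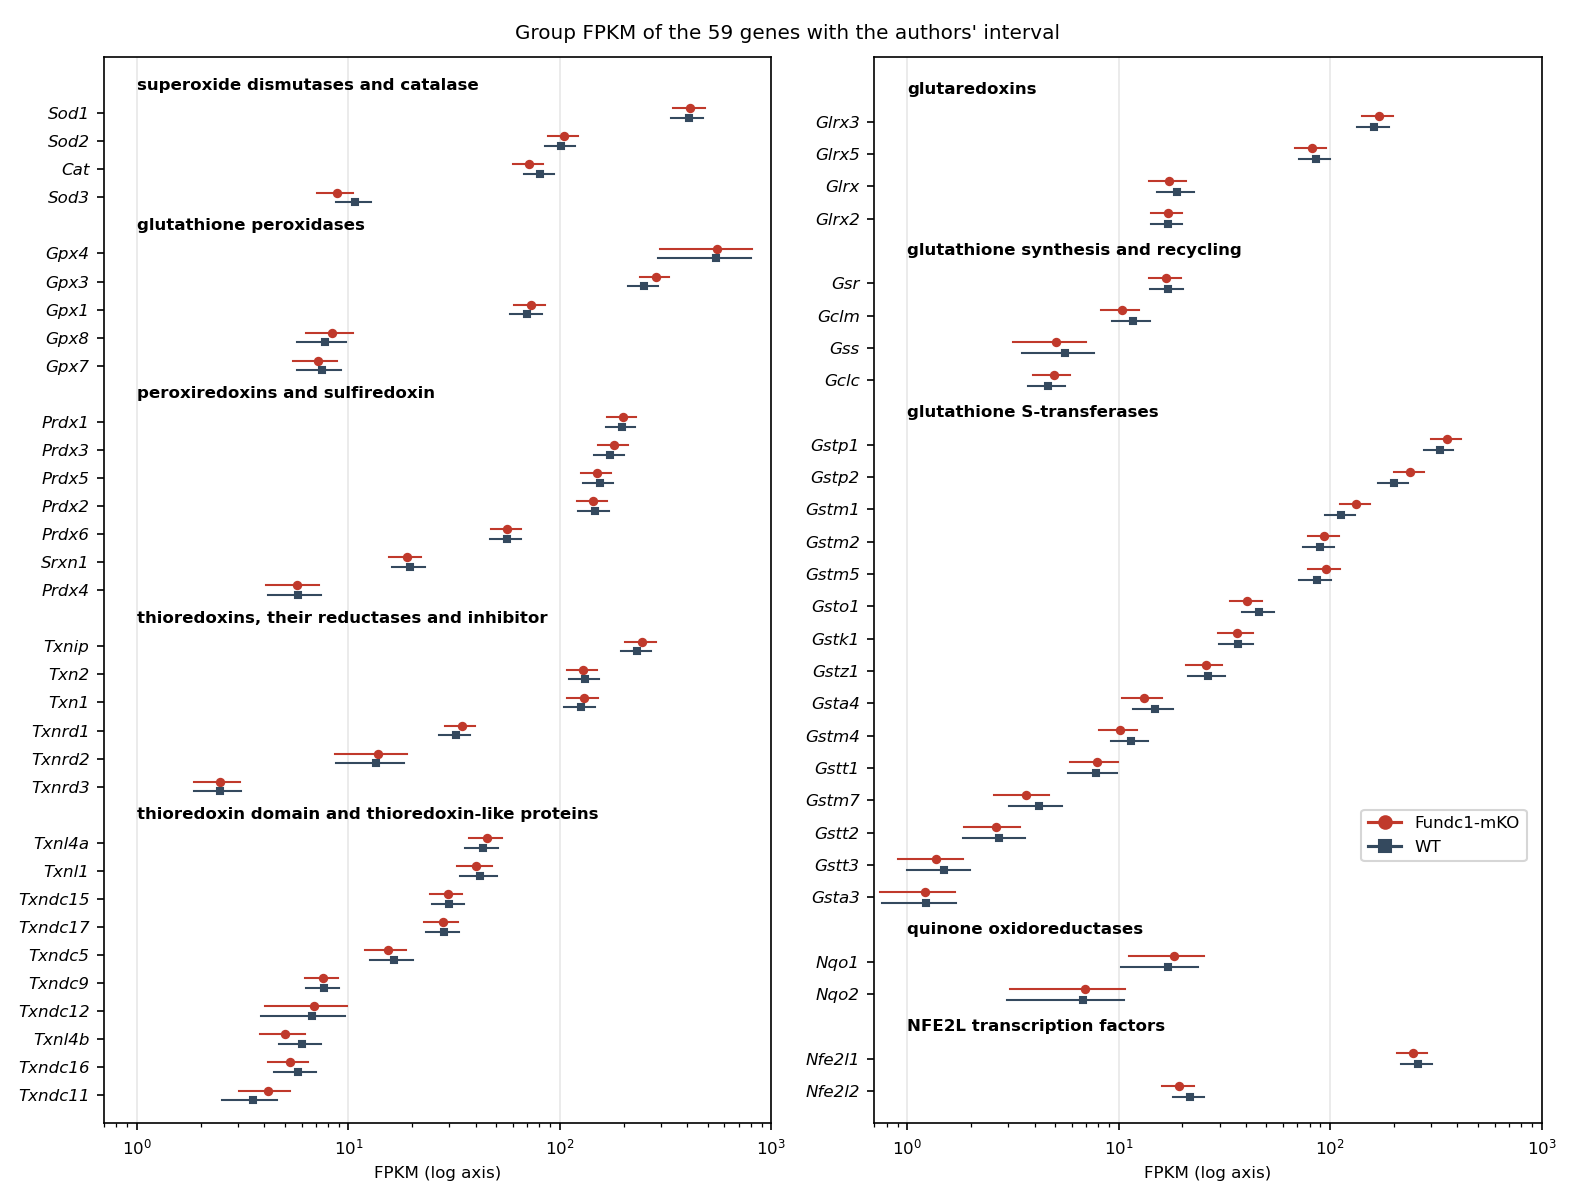
FPKM of each of the 59 genes on a log axis, by family, for Fundc1-mKO (red circles, upper of each pair) and WT (blue squares, lower); the bars are the authors' interval around each group value. The intervals of the groups overlap for every gene, and Gpx4 is the most and Gsta3 the least abundant gene.

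Before adjustment, 7 genes had p below 0.05 in the authors' deposited table, or 11.9% of the set. The same threshold was passed by 13.7% of all tested rows, and by 11.3% of rows at or above the set's lowest mean FPKM, so the share lies near the background. The 3 that were higher in mKO were Gstp2, Gstm1 and Gpx3, beside 4.68% of all tested rows in that direction, and the 4 that were lower were Sod3, Txnl4b, Gsto1 and Cat, beside 8.97%. At a q under 0.10, which 4.92% of all tested rows passed, 3 genes were inside: Gstp2, Gstm1 and Sod3. When the authors' test statistic was read against a normal distribution instead, no gene had an unadjusted p under 0.05. The lowest p by that reading was 0.131, for Gstp2, and 28 of all tested rows passed it after Benjamini-Hochberg adjustment.

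**Figure D2:**
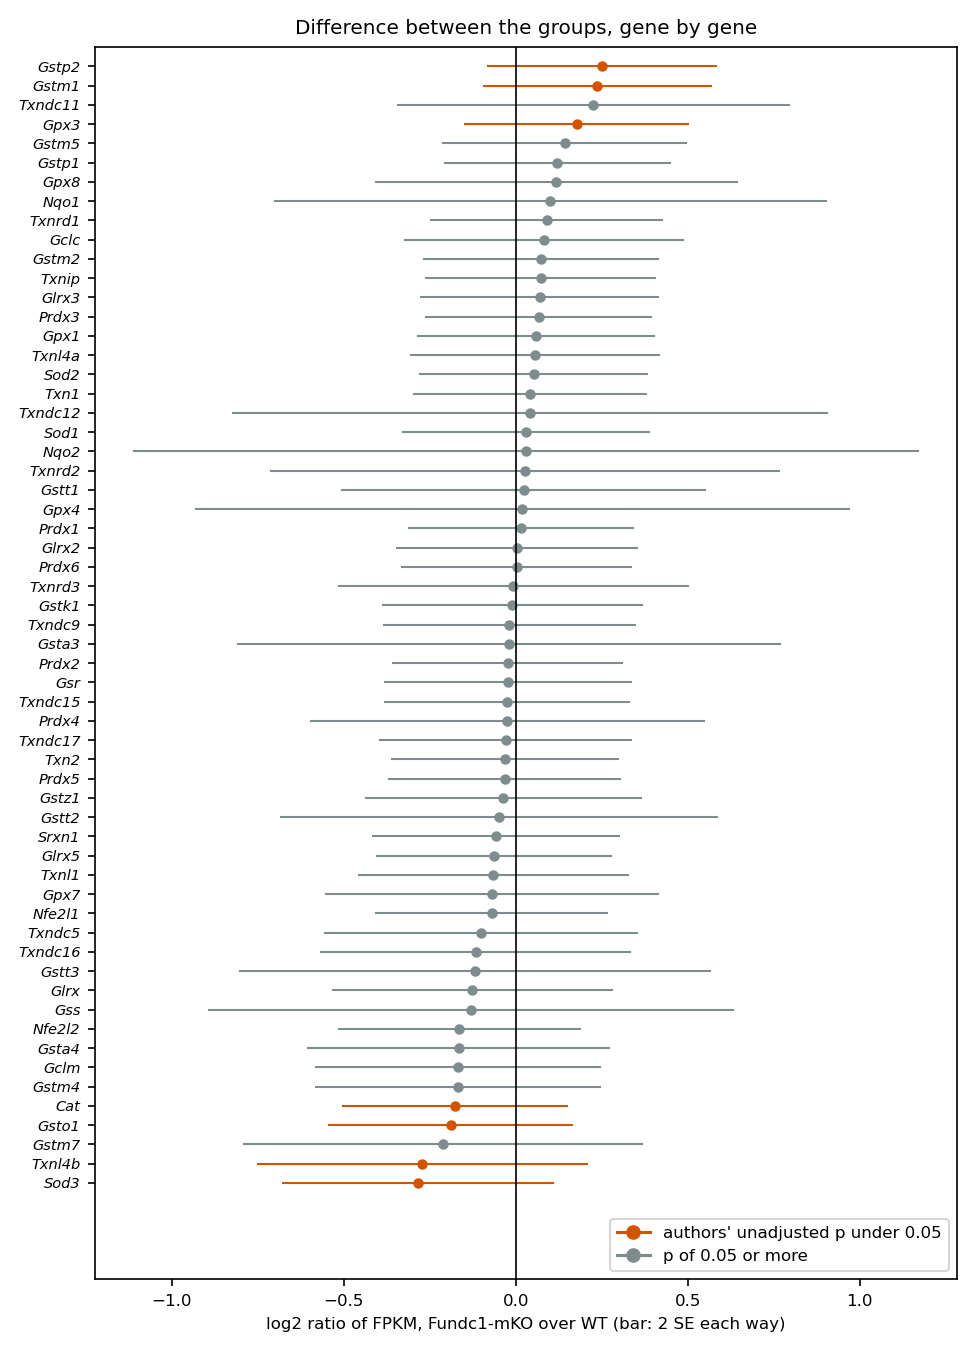
Log2 ratio of FPKM (Fundc1-mKO over WT) for the 59 genes, ordered by size, with a bar of 2 SE each way derived from the authors' intervals. Every bar crosses 0; the 7 genes with an unadjusted p under 0.05 (orange) are Gstp2, Gstm1 and Gpx3 on the right and Sod3, Txnl4b, Gsto1 and Cat on the left.

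A miss of the threshold does not show that the groups were alike. The intervals give the folds that lie within the assigned error, and they are not the limit of the authors' test. Among all tested rows 448 had q under 0.05, while the intervals of the groups lay apart in 101. An interval of the fold built from 2 SE each way held 1 for all 59 genes. It lay inside 1.5-fold in both directions for 43 genes and inside 2-fold for 58. The exception was Nqo2, whose interval of the fold ran from 0.464 to 2.25. Across the whole table the smallest absolute log2 ratio that passed q was 0.25, and 14 of the 425 passing rows with a finite ratio had a smaller one than Sod3, the gene of the set that differed most (0.28). Sod3 and Txnl4b exceeded that smallest size, and the other 57 genes of the set lay below it.

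**Figure D3:**
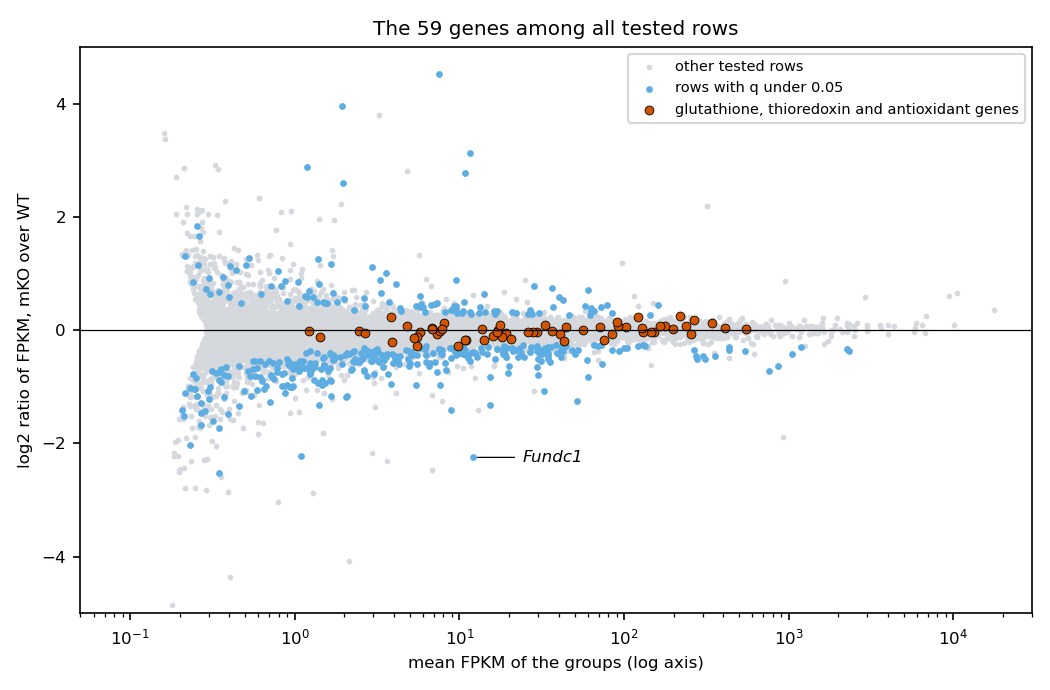
Log2 ratio of FPKM (mKO over WT) against the mean FPKM of the groups (log axis) for tested rows with a finite ratio; 10 of them lie outside the axes. The 59 genes (orange) lie within the central band between -0.28 and 0.25, rows with q under 0.05 (blue) lie mostly outside it, and Fundc1 stands at -2.25.

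Of the enzymes that remove superoxide and hydrogen peroxide first, none passed q, and the extracellular dismutase and catalase were at lower FPKM in mKO. Sod1, the cytosolic copper-zinc enzyme, was at 414 FPKM in mKO and 406 in WT, and Sod2, the manganese enzyme of the mitochondrial matrix, was at 105 FPKM in mKO and 101 in WT. Both differed by under 10% of the WT value. Sod3, which is secreted and binds to the matrix around cells, was at 8.83 FPKM in mKO, with an interval of 7.10 to 10.6, and at 10.8 FPKM in WT, with an interval of 8.73 to 12.8. Its log2 ratio of -0.28 ± 0.20 (SE) was the lowest of the set, and the authors' deposited table gave p = 0.00445 and q = 0.0939. The row covers chr5:52363804-52369738 in mm10, the extent of the gene in RefSeq. Cat, the peroxisomal catalase, was at 71.3 FPKM in mKO, with an interval of 59.9 to 82.7, and at 80.6 FPKM in WT, with an interval of 67.7 to 93.5. It was lower in mKO by log2 -0.18 ± 0.16 (SE), and the authors' deposited table gave p = 0.0308 and q = 0.28. For both genes the interval of the lower group reached into that of the other.

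Of 5 glutathione peroxidases measured, 4 were at higher FPKM in mKO. Gpx3, the form that is secreted into plasma, was at 283 FPKM in mKO, with an interval of 238 to 328, and at 251 FPKM in WT, with an interval of 211 to 290.3. That is 1.13-fold of WT, with an interval of the fold of 0.903 to 1.42, and the authors' deposited table gave p = 0.0278 and q = 0.267. The other family members stood closer to WT. Gpx4, which reduces lipid peroxides in membranes, was at 554 FPKM in mKO and 547 in WT and was the most abundant gene of the set. Gpx1, the cytosolic and mitochondrial form, was at 73.0 FPKM in mKO and 70.1 in WT. The endoplasmic reticulum forms were weak, with Gpx8 at 8.40 FPKM in mKO and 7.74 in WT and Gpx7 at 7.14 FPKM in mKO and 7.49 in WT. All 5 had overlapping intervals. The Gpx4 value is the least certain of the abundant ones, since its interval spans 46.3% of the FPKM to each side in mKO and 46.7% in WT.

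The 6 peroxiredoxins and sulfiredoxin had folds between 0.962 and 1.05. Prdx1, a cytosolic form, was at 198 FPKM in mKO and 196 in WT, and Prdx3, the form of the mitochondrial matrix, was at 181 FPKM in mKO and 172 in WT. Prdx5, found in mitochondria, peroxisomes and cytosol, was at 151 FPKM in mKO and 154 in WT, and Prdx2, a cytosolic form abundant in red blood cells, at 144 FPKM in mKO and 146 in WT. Prdx6, which works with glutathione rather than thioredoxin, differed least, at 56.2 FPKM in mKO and 56.1 in WT. Prdx4, the form of the secretory pathway, was the weakest at 5.69 FPKM in mKO and 5.78 in WT. Srxn1, which repairs overoxidised peroxiredoxins and is an NRF2 target, was at 18.8 FPKM in mKO and 19.6 in WT. The lowest p of the family in the authors' deposited table, before adjustment, was 0.414 and belonged to Prdx3.

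None of the genes of the thioredoxin system proper passed the test. Txn1, the cytosolic thioredoxin, was at 129.7 FPKM in mKO and 126 in WT, and Txn2, the mitochondrial one, was at 129 FPKM in mKO and 132 in WT. Of their reductases, the cytosolic Txnrd1 was at 34.3 FPKM in mKO and 32.2 in WT, the mitochondrial Txnrd2 was at 13.8 FPKM in mKO and 13.5 in WT, and Txnrd3, a form known from testis, was at 2.46 FPKM in mKO and 2.48 in WT. Txnip, which binds thioredoxin, restrains glucose uptake and is induced by glucose, was at 244 FPKM in mKO and 232 in WT. The folds of these 6 genes lay between 0.978 and 1.06.

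Among 10 further genes with a thioredoxin domain or fold, 7 were at lower FPKM in mKO. Txnl4b, related to the spliceosome protein Txnl4a, was at 5.02 FPKM in mKO, with an interval of 3.82 to 6.22, and at 6.06 FPKM in WT, with an interval of 4.68 to 7.44. Its log2 ratio was -0.27 ± 0.24 (SE), and the authors' deposited table gave p = 0.022 and q = 0.237. The row covers chr8:109565986-109574051. Txnl4a was at 45.1 FPKM in mKO and 43.4 in WT, in the opposite direction. Of the reductases and chaperones of the endoplasmic reticulum, Txndc5 was at 15.3 FPKM in mKO and 16.4 in WT, Txndc12 at 6.91 FPKM in mKO and 6.71 in WT and Txndc16 at 5.31 FPKM in mKO and 5.76 in WT. Txndc11, which assists the dual oxidases, was at 4.15 FPKM in mKO and 3.55 in WT and had the highest fold of the 10, 1.17, with an interval of the fold of 0.789 to 1.73. The cytosolic Txnl1, a thioredoxin-like protein bound to the proteasome, was at 40.1 FPKM in mKO and 42.0 in WT, and Txndc17 at 27.9 FPKM in mKO and 28.4 in WT. Txndc15 stood at 29.4 FPKM in mKO and 29.9 in WT and Txndc9, a partner of a cytosolic chaperonin, at 7.58 FPKM in mKO and 7.68 in WT.

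Glutaredoxins, which use glutathione to reduce disulfides or carry iron-sulfur clusters, did not differ beyond their intervals. Glrx3, a cytosolic form with a role in the heart and in iron handling, was the most abundant, at 169.7 FPKM in mKO and 162 in WT. Glrx5, needed for iron-sulfur clusters in mitochondria, was at 82.2 FPKM in mKO and 85.8 in WT. Glrx, the classical cytosolic enzyme, was at 17.3 FPKM in mKO and 18.9 in WT, and Glrx2, a mitochondrial form, was at 17.1 FPKM in mKO and 17.1 in WT. Glrx2 differed least and Glrx most, with a fold of 0.916, for which the authors' deposited table gave p = 0.21 and q = 0.692.

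The enzymes that make and restore glutathione were among the weaker genes and were not called in either direction. Gclc, the catalytic subunit of the rate-limiting ligase, was at 4.92 FPKM in mKO and 4.65 in WT, and Gclm, its modifier subunit, was at 10.4 FPKM in mKO and 11.6 in WT. These subunits thus stood in opposite directions, and neither passed. Gss, the synthetase of the next step, was at 5.08 FPKM in mKO and 5.56 in WT. Gsr, the reductase that restores glutathione, was at 16.8 FPKM in mKO and 17.1 in WT. Gclm had the lowest p of these 4 genes, 0.101 before adjustment in the authors' deposited table.

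The glutathione S-transferases held the genes nearest to the threshold. Their 15 measured genes summed to 1061 FPKM in mKO and 971 FPKM in WT, and 6 of the 15 were at higher FPKM in mKO. The pi class stood highest. Gstp1 was at 358 FPKM in mKO, with an interval of 301 to 416, and at 329.7 FPKM in WT, with an interval of 277 to 383. Gstp2 was at 239 FPKM in mKO, with an interval of 199.9 to 277, and at 201 FPKM in WT, with an interval of 168 to 233. Both were higher in mKO with overlapping intervals. For Gstp2 the log2 ratio was 0.25 ± 0.17 (SE), the highest of the set, and the authors' deposited table gave p = 0.0023 and q = 0.0635; for Gstp1 it was 0.12 ± 0.16 (SE), and the authors' deposited table gave p = 0.136 and q = 0.584. Gstp2 stood at rank 509 of the tested rows by p.

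Gstp1 and Gstp2 are neighbours on chromosome 19, at chr19:4035411-4037912 and chr19:4040288-4042221 in mm10 and 2376 bases apart, and they share much of their transcript. Their open reading frames of 633 bases were 98.1% identical and differed at 12 positions, and the last 303 bases were the same in both. The first 100 bases of that stretch are shown as an example of a sequence that a fragment from either gene would carry:
Gstp1 and Gstp2, bases 331 to 430 of the open reading frame: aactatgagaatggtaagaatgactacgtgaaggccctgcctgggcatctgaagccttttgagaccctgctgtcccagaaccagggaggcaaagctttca
Of all stretches of 100 bases in the annotated transcripts of Gstp2, 41.6% also occurred in transcripts of Gstp1, and 25.1% of those of Gstp1 occurred in Gstp2. The division of such fragments between the genes was not given in the sources used here. The values of the pair are therefore uncertain as single genes. Their sum, formed after the values were seen, was 597 FPKM in mKO and 530.3 FPKM in WT, or 1.13-fold, which lies between the folds of the single genes.

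The promoters of the pair differ more than the coding parts. Over 250 bases before and 50 bases after the start in RefSeq (GRCm38.p6) they were 77.8% identical. Each holds the AP-1 motif TGACTCA once, read on the opposite strand and shown in capitals, the letters bound by Jun and Fos dimers:
Gstp1, chr19:4037863-4038162, minus strand: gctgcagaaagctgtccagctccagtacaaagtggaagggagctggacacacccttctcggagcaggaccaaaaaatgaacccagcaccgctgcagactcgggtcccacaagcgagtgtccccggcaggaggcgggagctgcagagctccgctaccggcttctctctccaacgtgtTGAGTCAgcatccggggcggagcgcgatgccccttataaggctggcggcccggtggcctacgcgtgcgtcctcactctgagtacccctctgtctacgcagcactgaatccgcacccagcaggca
Gstp2, chr19:4042172-4042471, minus strand: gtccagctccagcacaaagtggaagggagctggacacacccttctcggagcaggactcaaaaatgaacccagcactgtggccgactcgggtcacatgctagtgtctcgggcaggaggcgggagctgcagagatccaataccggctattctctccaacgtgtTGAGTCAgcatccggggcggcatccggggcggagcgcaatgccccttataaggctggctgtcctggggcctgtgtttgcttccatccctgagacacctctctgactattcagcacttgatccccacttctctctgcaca
The motif begins 74 bases before the start in Gstp1 and 89 bases before it in Gstp2. On either strand it occurs in 5.2% of all RefSeq mouse promoters of this length.

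The mu class lies in a cluster on chromosome 3, where 5 genes of the set follow each other with gaps of 22435 to 49957 bases. Its members went both ways. Gstm1, the main cytosolic mu form, was at 132 FPKM in mKO, with an interval of 111 to 154, and at 112 FPKM in WT, with an interval of 94.1 to 130.4. Its log2 ratio was 0.24 ± 0.16 (SE), and the authors' deposited table gave p = 0.0037 and q = 0.0839. Gstm2, whose human form is known to act on calcium release channels, was at 94.0 FPKM in mKO and 89.3 in WT, and Gstm5 at 95.2 FPKM in mKO and 86.3 in WT. Those 3 abundant forms were at higher FPKM in mKO, while the weak ones were at lower FPKM, with Gstm4 at 10.2 FPKM in mKO and 11.4 in WT and Gstm7 at 3.63 FPKM in mKO and 4.20 in WT. No interval lay apart. Of 100-base stretches in Gstm1 transcripts, 5.86% were shared with another gene, and 0.357% of those of Gstm2, so the mu forms were more separable than the pi pair.

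No gene of the other classes passed q. Gsto1, the omega form that also reduces dehydroascorbate, was at 40.5 FPKM in mKO, with an interval of 33.5 to 47.6, and at 46.2 FPKM in WT, with an interval of 38.2 to 54.2. Its log2 ratio was -0.19 ± 0.18 (SE), and the authors' deposited table gave p = 0.03 and q = 0.277. The alpha form Gsta4, which conjugates the lipid peroxidation product hydroxynonenal, was at 13.2 FPKM in mKO and 14.8 in WT. Gstk1, a form of mitochondria and peroxisomes, was at 36.3 FPKM in mKO and 36.6 in WT, and Gstz1, which also acts in tyrosine breakdown, at 25.9 FPKM in mKO and 26.5 in WT. These 4 were all at lower FPKM in mKO. The weak forms Gstt1, Gstt2, Gstt3 and Gsta3 lay between 1.21 and 7.91 FPKM in mKO and between 1.23 and 7.78 FPKM in WT.

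Both quinone oxidoreductases were at higher and both NFE2L factors at lower FPKM in mKO, and none of the 4 passed. Nqo1, a classical NRF2 target that reduces quinones, was at 18.3 FPKM in mKO, with an interval of 11.2 to 25.3, and at 17.05 FPKM in WT, with an interval of 10.3 to 23.8. Nqo2, its relative, was at 6.92 FPKM in mKO and 6.78 in WT. The interval of the fold of Nqo1 was 0.615 to 1.87, so a change of 1.5-fold either way lay within it. Nfe2l2, which encodes NRF2, was at 19.4 FPKM in mKO, with an interval of 16.0 to 22.7, and at 21.7 FPKM in WT, with an interval of 17.98 to 25.4; the authors' deposited table gave p = 0.0556 and q = 0.388. Nfe2l1, whose product controls proteasome genes, was at 247 FPKM in mKO and 259.7 in WT. NRF2 is controlled mostly at the protein level, which these values do not measure.

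NRF2 with its small MAF partners binds the antioxidant response element, whose core TGACNNNGC was searched on both strands in RefSeq promoters of 300 bases. Of the 51 genes of the set with a promoter there, 11 held it, or 21.6%, beside 13.99% of 27025 mouse genes. Counted by promoter, 11 of 73 held it, or 15.1%, beside 12.4% of all RefSeq promoters of this length. The windows are shown on the strand of the motif, with the core in capitals, because they mark which genes of the set carry the letters close to their start:
Gclm, chr3:122245413-122245441, - strand: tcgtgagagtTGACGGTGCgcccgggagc
Gsta3, chr1:21240454-21240482, + strand: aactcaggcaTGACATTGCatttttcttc
Gstm5, chr3:107895802-107895830, + strand: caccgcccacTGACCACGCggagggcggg
Gstm7, chr3:107931725-107931753, - strand: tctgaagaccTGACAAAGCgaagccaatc
Nfe2l2, chr2:75704885-75704913, - strand: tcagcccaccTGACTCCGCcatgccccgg
Prdx1, chr4:116685456-116685484, - strand: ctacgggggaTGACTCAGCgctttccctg
Sod1, chr16:90220696-90220724, - strand: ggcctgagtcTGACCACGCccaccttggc
Srxn1, chr2:152105542-152105570, - strand: tgtctcactcTGACCTAGCtgcccactgc
Txndc11, chr16:11134755-11134782, - strand: gtggaaggcTGACGCGGCcgcgagtgct
Txndc5, chr13:38528034-38528062, - strand: gcctcgccgcTGACGTGGCgctagccgcc
Txnrd1, chr10:82859104-82859132, - strand: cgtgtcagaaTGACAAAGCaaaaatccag
The core of Prdx1, TGACTCAGC, also holds the AP-1 motif; those of the other 10 do not. The core of Srxn1 begins 28 bases after the start. Gstm7, Txndc5, Txndc11 and Txnrd1 have several promoters and hold the core in only 1 of them. A match in these letters is not a measured site, and known elements further upstream lie outside the window. In expression the 11 genes went both ways and, like the rest of the set, none passed. Prdx1, Sod1, Gstm5, Txnrd1 and Txndc11 were at higher FPKM in mKO, and Gclm, Gsta3, Gstm7, Nfe2l2, Srxn1 and Txndc5 at lower FPKM. The 8 genes without a promoter in that table were Gclc, Gsr, Gsta4, Gstt2, Prdx6, Sod3, Txnl1 and Txnl4a.

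Grouped by place in the cell, the set showed no gene past q in any compartment. The 6 genes whose products work in the mitochondrial matrix (Sod2, Prdx3, Txn2, Txnrd2, Glrx2 and Glrx5) summed to 528 FPKM in mKO and 522 FPKM in WT, with folds from 0.957 to 1.05. The 7 genes of the endoplasmic reticulum and secretory pathway (Prdx4, Gpx7, Gpx8, Txndc5, Txndc11, Txndc12 and Txndc16) summed to 52.9 FPKM in mKO and 53.5 FPKM in WT. The secreted enzymes stood apart from each other, Gpx3 higher and Sod3 lower in mKO. These groups were formed with the values in view and carry no test.

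In level the set reached from 1.22 to 550.5 FPKM as the mean of the groups, with 16 genes at 100 FPKM or more, 25 between 10 and 100 and 18 below 10. The order in mKO began with Gpx4, Sod1, Gstp1, Gpx3, Nfe2l1, Txnip and Gstp2. Of the 58 neighbours in the order of means, 57 had overlapping intervals in both groups, so the order is one of steps smaller than the error. The exception was Txnrd3 over Gstt3, whose intervals overlapped in WT but not in mKO.

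The authors' intervals were nearly the same width for strong genes and wider for some others. The smallest half-width was 15.9% of the FPKM in each group, and the median was 17.8% in mKO and 17.9% in WT. In 13 genes the locus of the row was at least 2 times as long as the RefSeq gene, up to 72.5 times for Gpx4, whose row covers chr10:79697305-80369637 in mm10. Of these 13, 5 had a WT half-width above 30%: Gpx4, Nqo1, Nqo2, Gss and Txnrd2. Among the other 46 genes there were 4, Txndc12 and the weak Gsta3, Gstt2 and Gstt3. The median WT half-width was 22.9% in the 13 genes and 17.7% in the other 46. The kit named in the labels is not described there as keeping strand, and exons of 13 genes overlapped exons of another gene on the opposite strand in GENCODE M21, by at most 19.4% of their bases, for Txnip. Whether the counting kept the strands of those genes apart is not known here.

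**Figure D4:**
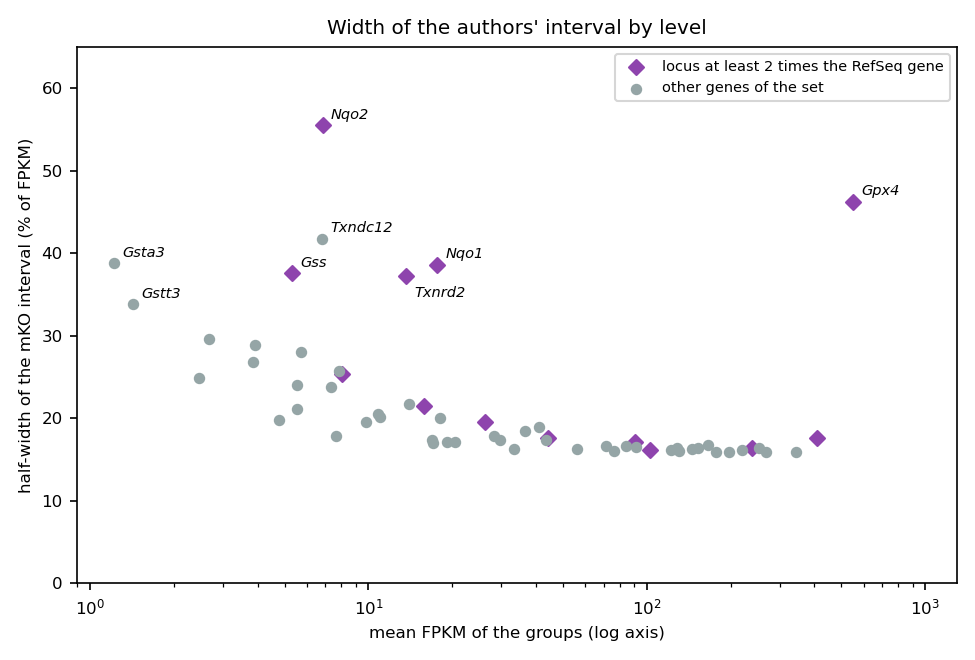
Half-width of the authors' interval in Fundc1-mKO, in percent of the FPKM, against the mean FPKM of the groups (log axis) for the 59 genes. Most points fall on a curve that flattens near 16%; Gpx4, Nqo2, Nqo1, Txnrd2 and Gss, whose rows span at least 2 times the annotated gene (purple diamonds), and Txndc12 lie above it.

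Around the set, 169 other tested genes of glutathione turnover, NADPH supply, NRF2 control, selenoproteins, oxidant production, oxidant defence and disulfide exchange were taken from 9 lists, which share some genes. Below, a gene is said to rise or fall where its q was under 0.05. Of these 15 passed q, or 8.88%, with 2 higher and 13 lower in mKO, beside 3.17% of all tested rows. The lists were drawn up with earlier results of these data known, and some of their genes were known to pass, so the higher share is a description. Their median log2 ratio of FPKM + 1 was -0.03. The list of other oxidant defence held 7 of the 15, all lower in mKO, and the lists of NRF2 regulators and selenoproteins held none. The ligase subunits, synthetase and reductase of glutathione and the thioredoxins with their reductases belong to the set, so these lists could not hold them.

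Of 16 tested genes of glutathione synthesis and turnover outside the set, 1 fell: Chac1, which degrades glutathione, at 36.7 FPKM in mKO and 46.5 in WT. Of 18 further glutathione-using enzymes 1 fell, the thioesterase Esd, at 37.9 FPKM in mKO and 45.9 in WT. Of 18 genes that supply NADPH, which both systems need, 1 rose and 1 fell. Nnt, the mitochondrial transhydrogenase, rose to 71.1 FPKM in mKO, against 54.4 in WT. The C57BL/6J strain is known to carry a deletion in this gene, and its part in the difference was not tested. Me2, the mitochondrial malic enzyme, fell to 1.58 FPKM in mKO, against 2.199 in WT.

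Of 29 NRF2 targets outside the set, 3 fell and 1 rose. Hmox1, the inducible haem oxygenase, fell to 6.33 FPKM in mKO, against 10.3 in WT, and Akr1b8, an aldo-keto reductase, fell to 1.71 FPKM, against 2.74 in WT. Esd was the third that fell, and Osgin1, an oxidative stress-induced growth inhibitor, rose to 8.47 FPKM in mKO, against 6.08 in WT. Of 13 regulators of NRF2 none passed q. The most abundant, Sqstm1, which binds the repressor Keap1, was at 278 FPKM in mKO and 325 in WT, and was the 1 regulator with p below 0.05 before adjustment in the authors' deposited table (0.0076).

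Of 18 selenoproteins, their synthesis factors and methionine sulfoxide reductases none passed q, and 1 was below 0.05 before adjustment. Sepw1, the muscle selenoprotein W, was the most abundant, at 3088 FPKM in mKO and 2909 in WT. Of 24 oxidant sources 1 fell, Ncf1, a subunit of the phagocyte NADPH oxidase, at 2.06 FPKM in mKO and 2.96 in WT. Of 15 other protein disulfide isomerases and relatives 14 were below WT and 1 of them fell, Pdia4, an isomerase of the endoplasmic reticulum, at 8.98 FPKM in mKO and 11.5 in WT. Of 28 other genes of oxidant defence 7 fell and none rose: the metal-binding metallothioneins Mt1, Mt2 and Mt3, Hmox1, the mitochondrial uncoupling proteins Ucp2 and Ucp3, and the small heat shock protein Cryab. Mt1 was at 576 FPKM in mKO and 949 in WT, Mt2 at 675 FPKM in mKO and 1047 in WT and Mt3 at 48.9 FPKM in mKO and 70.6 in WT.

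**Figure D5:**
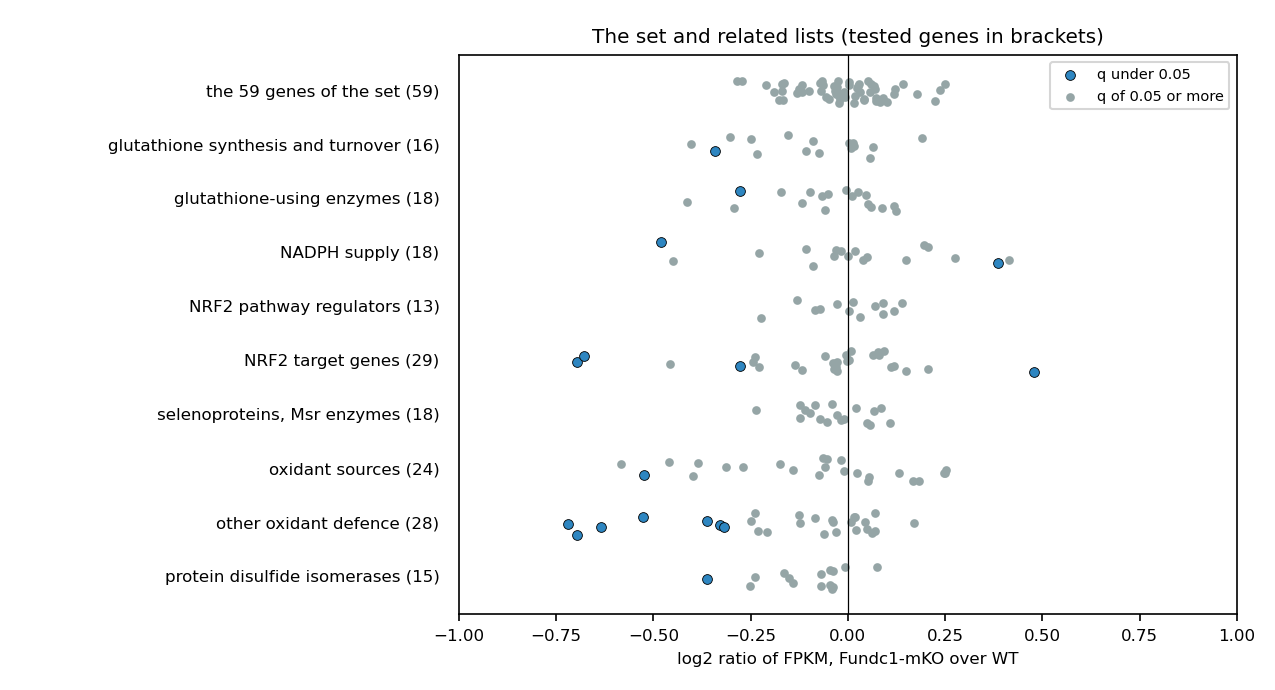
Log2 ratio of FPKM (Fundc1-mKO over WT) for the 59 genes and for the tested genes of 9 related lists, 1 point per gene, with genes of q under 0.05 in blue; vertical scatter within a row carries no meaning and lists share some genes. The 59 genes show no blue point and lie between -0.28 and 0.25, while the list of other oxidant defence shows 7 blue points on the left.

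Marker lists of macrophages, fibroblasts and matrix, adipocytes, granulocytes and epidermis held genes that passed q. Those of endothelium, red blood cells and nerve held none. Of all tested rows, 0.92% passed q higher and 2.25% lower in mKO. Of 12 macrophage markers 8 fell and the other 4 were also below WT, with a summed level of 249.6 FPKM in mKO and 317 FPKM in WT. Of 10 fibroblast and matrix markers 9 were below WT and 5 fell (290.3 FPKM in mKO and 335 FPKM in WT in sum). Of 6 granulocyte markers, all above WT, 5 rose (272 FPKM in mKO and 197 FPKM in WT). Of 9 adipocyte markers Retn rose (3372 FPKM in mKO and 3271 FPKM in WT in sum), and of 7 endothelial markers all were above WT and none passed (92.3 FPKM in mKO and 84.8 FPKM in WT). Of 6 epidermal markers, all below WT, 3 fell (1.81 FPKM in mKO and 8.02 FPKM in WT). The 6 markers of nerve and Schwann cells, 5 of them below WT, did not pass (83.7 FPKM in mKO and 90.8 FPKM in WT), nor did either of 2 red blood cell markers, both above WT (90.7 FPKM in mKO and 78.9 FPKM in WT). In bulk muscle, fewer cells of a type and less RNA per cell cannot be told apart. The part of these markers in the values of Sod3, Gpx3, Hmox1, Ncf1 and the other genes above was not tested.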

How the data were processed

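A NEBNext kit was used, per the labels' protocols, to make 2 Fundc1-mKO and 2 WT gastrocnemius libraries. Tools named by the submitters' processing notes, without roles, are TopHat2 2.0.14, Cufflinks 2.2.1, FastQC 0.11.3 and bcl2fastq, with the build mm10. FPKM values were deposited by the authors as 1 value per gene and group with an interval, and settings and library depth were not given in the sources used here. The test statistic is a score that the authors deposited. The p-value and q-value of the authors' deposited table were used as given; the linear model foreseen for values per library could not be fitted.

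The rule took tested rows (status OK) with a single symbol of the named families; each symbol had 1 row. Ratios are mKO over WT. The bound was read as lying 2 SD from the FPKM, from which the SE of a log2 ratio was derived; ratio over SE came within 1% of the authors' statistic in 99.9% of 14100 rows. Rows with a p between 0.04 and 0.06 had a median absolute statistic of 0.98, so the authors' p is smaller than a normal reading gives. The Benjamini-Hochberg adjustment of the normal reading was tested on simulated data with normal errors. That does not test the authors' q. Starts had 1 added. Promoters are RefSeq (GRCm38.p6), transcripts and exons GENCODE M21.

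Genes were named when q or unadjusted p was under 0.05, by family otherwise, and in other lists when q passed or as the most abundant. The members and lists were chosen with earlier results of these data known. Python 3.11.15, numpy 2.4.6, pandas 2.3.3, scipy 1.17.1 and matplotlib 3.10.9 were used.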

Additional observations from a re-analysis of the deposited data

How the results depend on the processing

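No paired analysis was possible because the table holds 1 value per group, and for the same reason no replicate could be left out. The count of 0 genes past q under 0.05 among the 59 stayed 0 by separation of the intervals and by the normal reading of the statistic. Of all tested rows, 101 had intervals apart and 28 passed the normal reading after adjustment, against 448 with q under 0.05. Both are stricter rules, so their count of 0 adds no support. A q under 0.01, a mean FPKM of at least 1 or 5 and a minimum change of 1.5-fold only narrow the rule. They left the count at 0 and could not have raised it. The count moved to 3 at q under 0.10 and to 7 at an unadjusted p under 0.05. The 15 calls among related genes moved to 34 at an unadjusted p under 0.05. The median log2 ratio of the set lay between -0.02 and -0.01 under every pseudocount, minimum and scaling tried. Scaling the groups to equal medians changed values by a factor of 0.9998. None of 177 values of single genes under another pseudocount or scaling changed sign. A pseudocount added to both groups cannot change a sign, and this scaling was too small to do so. The unchanged signs are therefore no test of direction. The log2 ratio of Fundc1 on FPKM + 1 was -2.01 and moved to -2.24 with a pseudocount of 0.01, an alternative added after seeing the data. The depth of the libraries and the spread between animals are unknown, which limits every value.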

Other observations

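Rows that carried a symbol of these families but were left untested by the authors were all at or under 0.257 FPKM in both groups, and no pair of intervals lay apart. Of the 14, 6 were listed at 0 in both groups: Gpx5, Gpx6, the pseudogene Gpx2-ps1, Gstt4, Prdx6b and Txndc8. Gpx2, the intestinal glutathione peroxidase, was listed at 0 in mKO and at 0.0396 FPKM in WT. Gsta1, an alpha-class transferase, was at 0.207 FPKM in mKO, with an interval of 0.0202 to 0.394, and at 0.0461 FPKM in WT, with an interval of 0 to 0.154. Gstm6 was at 0.256 FPKM in mKO and 0.229 in WT, and Gsto2 at 0.242 FPKM in mKO and 0.257 in WT. Nfe2l3, the third NFE2L factor, was at 0.115 FPKM in mKO and 0.151 in WT. Gstm3, Gsta2 and Txndc2 lay under 0.07 FPKM in both groups.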
